A study of Mus musculus with 20 samples.

Results

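RNA was measured in cultured fibroblasts of mouse embryos (MEFs) to ask which genes still respond to tumour necrosis factor (TNF) when the NF-kB subunit RelA carries an altered sequence. The cells described here are the 4 libraries of the genotype that the labels call crel-/-RelA-TA-KI, taken at 0 h and after 0.5, 1 and 3 h of TNF, out of 20 libraries in all. They were chosen by genotype and agent as labelled, not by any measured value. This genotype is called the knock-in below. Each TNF library was set against the knock-in 0 h library, and 4 libraries of the genotype crel-/- with the same agent and times served as the comparison.

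All cells were primary MEFs of the strain C57BL/6, and both genotypes lack the NF-kB subunit c-Rel (gene Rel), so no group with intact c-Rel enters the comparison. The knock-in adds an altered allele at Rela, the gene for RelA, with neither the meaning of TA nor the altered residues stated in the labels. Cells were grown in 10% serum, starved overnight in 0.5% serum and then given TNF at 10 ng/ml, or lipopolysaccharide (LPS) at 100 ng/ml or interleukin 1 beta (IL-1b) at 10 ng/ml in the other libraries. Each genotype, agent and time is 1 library, and the labels name no separate cultures, so p-values here measure only the spread between these libraries, which may be technical. Unstimulated cells were taken at 0 h alone, so that TNF and time after 0 h cannot be told apart.

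TNF binds TNF receptor 1 and recruits a signalling complex that activates the IkB kinases and the MAP kinases. The IkB kinases release NF-kB dimers, mainly RelA with p50 in fibroblasts, from the inhibitor IkB-alpha, and RelA then switches on genes through its transactivation domains. The MAP kinases act in parallel through AP-1, the ternary complex factors with SRF, and CREB or ATF proteins, which drive the immediate early genes. Induced mRNAs in MEFs include inhibitors that end the signal, chemokines that attract leukocytes, adhesion molecules and, later, interferon-stimulated genes.

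The 4 knock-in libraries held 10553565 to 11466398 counts and the 4 crel-/- libraries 10329090 to 12466519. A gene was tested when it reached 1 CPM (counts per 1e6 of the library total, scaled between libraries by the TMM method) in at least 1 of the 4 knock-in libraries, which kept 13476 genes. Genes under 1 CPM in all 4 knock-in libraries were left out whatever their crel-/- level. The crel-/- counts, shared percentages and list medians below therefore lack genes that were high in crel-/- cells alone. Rel, the deleted gene, was still counted at 16.6 to 20.8 CPM in knock-in and 16.4 to 25.0 CPM in crel-/- libraries, and Rela at 80.6 to 159.6 CPM in knock-in libraries. Counts over the whole gene were not split by exon, so they check neither the deletion nor the altered residues that the labels give. All 9 fibroblast markers were measured, with a summed level of 58410 to 63870 CPM in the knock-in libraries and 50600 to 57470 CPM in the crel-/- libraries. All 15 macrophage markers were also measured and none was at 0, with sums of 4282, 4451, 4523 and 5453 CPM at 0, 0.5, 1 and 3 h in knock-in cells and 5000, 4983, 5164 and 5729 CPM in crel-/- cells, so macrophage marker RNA was present in every library used here. The lower knock-in sums rest mainly on 1 marker, Lyz2, at 1398 and 1621 CPM at 0 and 3 h in knock-in cells and 2062 and 2156 CPM in crel-/- cells. Of the 10 endothelial markers 5 were measured, with sums of 57.6 CPM at 0 h and 118.3 CPM at 3 h in knock-in cells. Most of that change was 1 marker, Flt1, at 27.9 and 85.1 CPM. Of the 8 epithelial markers Epcam, Cdh1 and Cldn4 were not measured. Of the 15 markers Cd14 alone was past 2-fold higher at each time, at 40.5, 84.0, 112 and 321 CPM in knock-in and 37.8, 111, 138 and 209 CPM in crel-/- cells. In bulk RNA, fewer cells of a type and less RNA per cell cannot be told apart.

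Knock-in cells kept a response to TNF at each time, with fewer genes past 2-fold than in crel-/- cells. With 1 library against 1, a gene was counted as past 2-fold at a log2 difference of at least 1 with at least 5 CPM in the higher library, a rule of size with no test. After 0.5 h, 99 genes (0.735% of those tested) were past 2-fold higher in knock-in cells and 12 (0.089%) lower, beside 141 (1.05%) higher and 11 (0.0816%) lower in crel-/- cells. After 1 h the knock-in counts were 162 (1.2%) higher and 52 (0.386%) lower, beside 288 (2.14%) and 91 (0.675%) in crel-/- cells. After 3 h they were 407 (3.02%) higher and 321 (2.38%) lower, beside 591 (4.39%) and 385 (2.86%). Scaling by library totals alone gave 336 higher and 464 lower at 3 h in knock-in cells and moved the median log2 difference of all genes at that time from -0.03 to -0.14, so the balance of higher and lower genes at 3 h depends on the scaling.

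**Figure D1:**
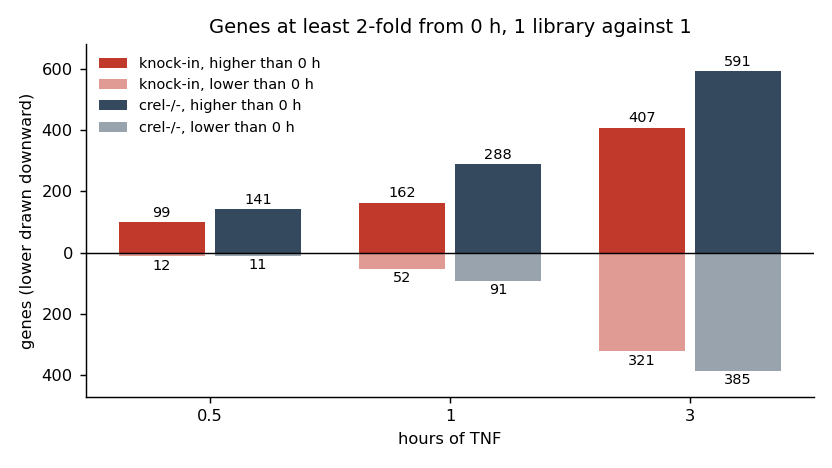
Number of genes (vertical axis) past 2-fold from 0 h, higher or lower, after 0.5, 1 and 3 h of TNF in knock-in and crel-/- cells, 1 library against 1 for each bar. The knock-in bars for higher genes, 99, 162 and 407, lie below the crel-/- bars, 141, 288 and 591, at each time.

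The genes past 2-fold higher in knock-in cells were mostly past 2-fold in crel-/- cells too. The overlap was 84 genes at 0.5 h (84.8% of the knock-in set, 59.6% of the crel-/- set), 126 at 1 h (77.8% and 43.8%) and 258 at 3 h (63.4% and 43.7%). The filter on knock-in levels by itself raises the shares of the crel-/- sets. Among the 141 genes past 2-fold in crel-/- cells at 0.5 h, the median log2 difference was 2.15 in crel-/- and 1.41 in knock-in cells. For the 288 genes at 1 h these medians were 1.57 and 0.98, and for the 591 genes at 3 h 1.51 and 0.93. The knock-in value had the same sign as the crel-/- value in 134 of 141, 261 of 288 and 532 of 591 genes, and was the smaller in 115, 245 and 487 of them. These sets were chosen by the crel-/- value, which by itself favours a smaller value in the other genotype. The sets chosen by the knock-in value, 99, 162 and 407 genes, had medians of 1.79, 1.49 and 1.48 in knock-in and 2.33, 1.64 and 1.34 in crel-/- cells, and the crel-/- value was the smaller in 41, 79 and 250 of them. Genes past the fold in crel-/- cells and not in knock-in cells had knock-in medians of 0.56, 0.48 and 0.43 at the 3 times, above the all-gene medians of -0.004, -0.003 and -0.027.

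In time, 454 genes (3.37%) were past 2-fold higher in knock-in cells at 1 or more of the 3 times, and 63 of them at all 3 times. Their highest TNF library was the one at 0.5 h for 39 genes, at 1 h for 54 and at 3 h for 361. In crel-/- cells 701 genes were past 2-fold higher at some time, with the highest value at 0.5 h for 77, at 1 h for 115 and at 3 h for 509. For the 323 genes past 2-fold in both genotypes, the highest value came at 0.5, 1 and 3 h for 35, 30 and 258 genes in knock-in cells and for 64, 65 and 194 genes in crel-/- cells.

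**Figure D2:**
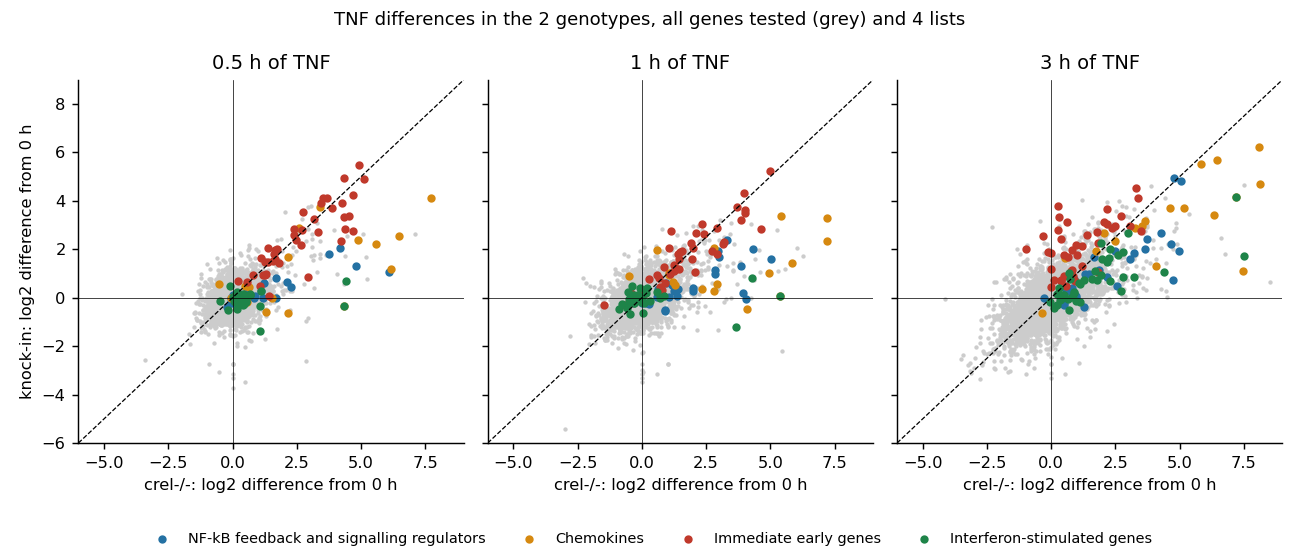
Log2 difference from 0 h of each gene tested (grey) and of 4 gene lists (colours), with crel-/- cells on the horizontal axis and knock-in cells on the vertical axis, at 0.5, 1 and 3 h of TNF; 1 library against 1, the dashed line marks equal values. Immediate early genes lie along the line at 0.5 and 1 h and mostly above it at 3 h, with medians of 2.13 in knock-in and 0.82 in crel-/- cells, while NF-kB regulators and chemokines lie mostly below it. Interferon-stimulated genes lie mostly below it at 0.5 and 3 h and mostly above it at 1 h.

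Tests of 2 kinds were possible. The mean of the 3 TNF libraries against the single 0 h library has 2 residual degrees of freedom, and edgeR's quasi-likelihood test called 0 genes (0% of those tested) in knock-in cells at an adjusted p of 0.05. At an unadjusted p of 0.05 it had 244 genes higher and 102 lower, limma-voom also called 0, and DESeq2 called 66 higher and 1 lower. In this test a difference between the 3 times counts as spread, so genes that peak at 1 time are hard to call. Leaving out the 3 h library, an alternative listed at the outset but used as a result of its own only after the values were seen, leaves 1 residual degree of freedom and asks which genes were alike at 0.5 and 1 h and apart from 0 h. This test of the first hour called 73 genes higher (0.542%) and 4 lower (0.0297%) in knock-in cells, and 44 of the 73 were also past 2-fold at 0.5 or 1 h. At an unadjusted p of 0.05 it had 743 genes.

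Of the 73 genes that rose in the first hour in knock-in cells, 12 were among the 41 on the immediate early list. The genes given in full here were chosen after their values were seen. Errfi1, an inhibitor of the EGF receptor, stood at 31.5 CPM at 0 h and at 224, 213.5 and 506 CPM after 0.5, 1 and 3 h of TNF in knock-in cells, and at 29.3, 223, 208 and 183 CPM in crel-/- cells. Its first-hour rise in knock-in cells was 2.80 (log2, SE 0.12, edgeR adjusted p = 4.01e-08). Nr4a3, an orphan nuclear receptor, went from 1.88 to 63.3, 77.8 and 13.4 CPM in knock-in cells, a first-hour rise of 5.22 (SE 0.23, edgeR adjusted p = 5.67e-07). In crel-/- cells it stood at 1.71, 38.4, 60.0 and 6.41 CPM. All 3 TNF libraries lay above 0 h for both genes in both genotypes, and neither gene's first-hour response was called different between genotypes by the interaction test. Ccn2, a secreted matricellular protein, stood at 136 CPM and then at 560.1, 560.2 and 505 CPM, a rise of 2.04 (SE 0.11, edgeR adjusted p = 4.88e-07). Myc, a growth regulator, went from 20.2 to 79.6, 97.7 and 168 CPM, a rise of 2.13 (SE 0.16, edgeR adjusted p = 0.000132). Ereg, an EGF receptor ligand, and Dusp8, a phosphatase of the JNK and p38 kinases, rose by 2.41 (SE 0.21, edgeR adjusted p = 4.37e-05) and 2.51 (SE 0.19, edgeR adjusted p = 3.4e-05). Known NF-kB targets among the 73 included Tnf itself (rise of 2.59, SE 0.35, edgeR adjusted p = 0.0018), Cxcl5 (1.89, SE 0.21, edgeR adjusted p = 0.00553), Nfkbid (2.01, SE 0.40, edgeR adjusted p = 0.0374) and Irf1 (0.75, SE 0.14, edgeR adjusted p = 0.0217). Txnip, an inhibitor of thioredoxin, fell by 1.17 (SE 0.10, edgeR adjusted p = 4.37e-05), from 411 CPM at 0 h to 194, 172 and 201 CPM, and was as low in crel-/- cells, at 374 and then 176, 172 and 168 CPM.

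**Figure D3:**
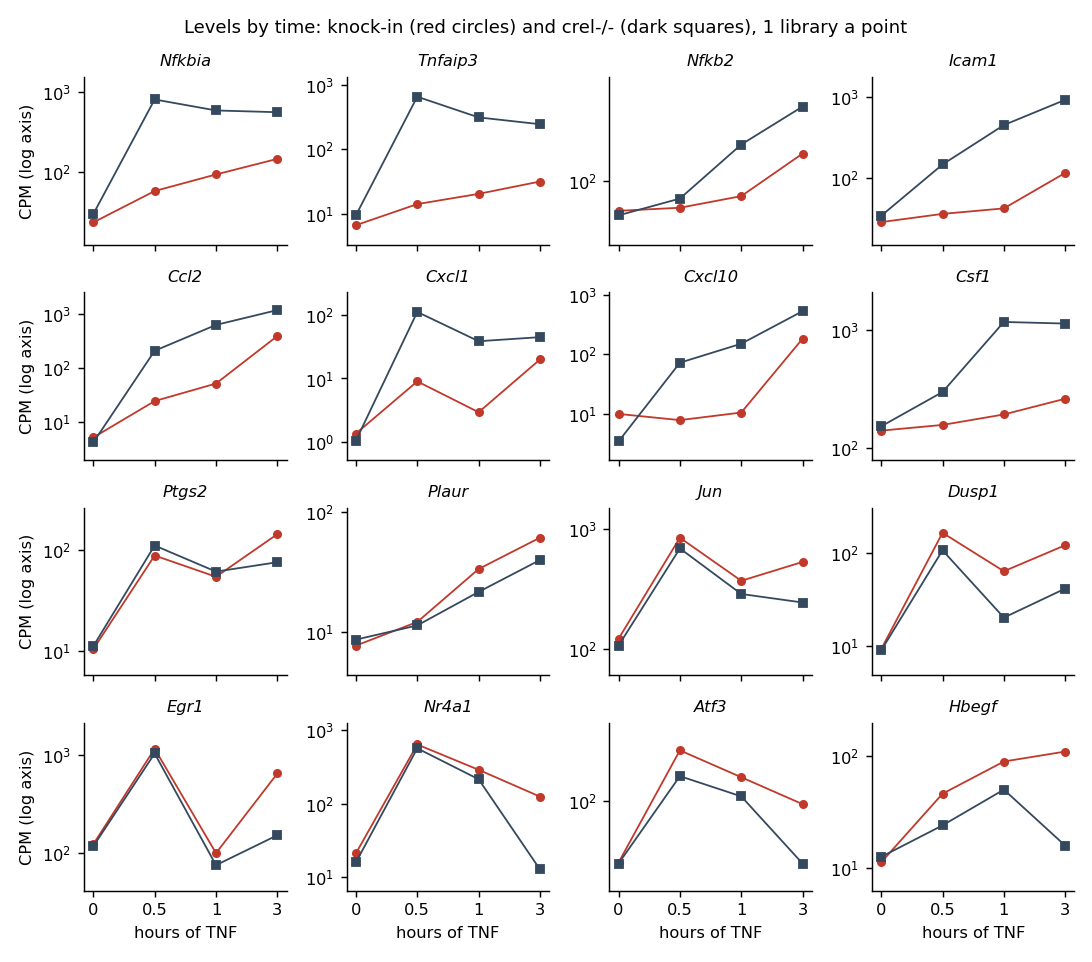
Level of 16 genes in CPM (log axis) against hours of TNF (0, 0.5, 1 and 3 h) in knock-in cells (red circles) and crel-/- cells (dark squares), 1 library a point. Nfkbia, Tnfaip3, Icam1 and Csf1 separate by genotype from the earliest TNF library on, whereas Egr1 and Nr4a1 lie close together at 0.5 and 1 h and part at 3 h, where the knock-in points are the higher. Atf3 is higher in knock-in cells at all 3 TNF times.

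Among the inhibitors that end the NF-kB signal, Nfkbia, Tnfaip3 and Nfkbie stood far below their crel-/- level at each TNF time, and Nfkbiz at 0.5 and 1 h but not at 3 h. Nfkbia encodes IkB-alpha, which binds NF-kB and is remade within the hour after a stimulus. In knock-in cells it stood at 22.9, 57.0, 92.3 and 145 CPM at 0, 0.5, 1 and 3 h, log2 differences of 1.31, 2.0 and 2.65. In crel-/- cells it stood at 29.3, 814, 592 and 562 CPM, differences of 4.79, 4.33 and 4.26. The crel-/- level was highest at 0.5 h and the knock-in level at 3 h, and all 3 TNF libraries lay above 0 h in both genotypes. Tnfaip3 encodes A20, an enzyme that edits ubiquitin chains on the receptor complex. It went from 6.59 to 14.0, 20.2 and 31.4 CPM in knock-in cells and from 9.37 to 650, 310 and 243 CPM in crel-/- cells. Nfkbie, for the inhibitor IkB-epsilon, stayed at 6.50, 6.37 and 7.52 CPM until 1 h and was at 25.2 CPM at 3 h in knock-in cells, against 9.21, 29.9, 142 and 292 CPM in crel-/- cells. Nfkbiz, for the nuclear IkB-zeta, stood at 16.9, 58.7, 20.4 and 54.2 CPM in knock-in and at 9.70, 133, 39.6 and 31.4 CPM in crel-/- cells.

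Over the NF-kB regulator list, 27 genes of feedback and signalling all measured, 4, 5 and 12 were past 2-fold higher at 0.5, 1 and 3 h in knock-in cells and 10, 17 and 17 in crel-/- cells. The median log2 difference was 0.06, 0.28 and 0.97 in knock-in cells and 0.52, 1.38 and 1.88 in crel-/- cells, and the knock-in value was the smaller in 24, 25 and 25 of 27. The subunit genes Nfkb1, Nfkb2 and Relb had log2 differences of 0.86, 1.62 and 2.01 at 3 h in knock-in cells, beside 2.18, 3.08 and 3.65 in crel-/- cells. Ripk2, a kinase of NOD receptor signalling, stayed under 2-fold in knock-in cells, at 13.9, 13.8, 13.5 and 22.9 CPM, against 14.0, 25.3, 238 and 378 CPM in crel-/- cells. Tnip1, a partner of A20, also stayed near its 0 h level in knock-in cells, at 43.1, 42.3, 43.6 and 59.6 CPM, and reached 258 CPM at 3 h in crel-/- cells. A few members reached a similar size in both genotypes by 3 h. Traf1, a receptor adaptor, stood at 0.599, 0.594, 2.79 and 21.7 CPM in knock-in and 0.815, 2.09, 7.62 and 32.6 CPM in crel-/- cells, with 3 h differences of 4.80 and 5.04, and Tnip3, an A20 partner, had 3 h differences of 4.92 and 4.77. Both were behind crel-/- cells at 0.5 and 1 h. None of the 25 components that carry the signal from the receptor was past 2-fold in knock-in cells at any time, beside 0, 0 and 2 higher in crel-/- cells. Of all genes tested, 0.735%, 1.2% and 3.02% were past 2-fold higher in knock-in cells at 0.5, 1 and 3 h. A list of 25 would hold few or none at those shares. The medians of these components in knock-in cells were 0.01, 0.05 and 0.07, and Tnfrsf1a, for TNF receptor 1, stood at 146, 147, 158 and 198 CPM.

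Promoter sequences are shown for 4 genes as examples. They are Nfkbia and Cxcl1, whose TNF difference was smaller in knock-in cells, and Fos and Dusp1, whose difference was kept. Fos, Nfkbia and Cxcl1 were set by rule and Dusp1 was added after its values were seen. Each is the RefSeq window on GRCm38.p6 (mm10) from 250 bases before to 50 bases after the gene's start, read 5′ to 3′ on the gene's strand. They lie at chr12:55492598-55492897 (Nfkbia, minus strand), chr5:90890995-90891294 (Cxcl1, plus strand), chr12:85473640-85473939 (Fos, plus strand) and chr17:26508423-26508722 (Dusp1, minus strand), so each holds the upstream flank and the beginning of the first exon. Capitals mark matches to an NF-kB like motif (GGG, any 3 bases, then TTCC or TCCC) in Nfkbia and Cxcl1 and to the cyclic AMP response element (CRE, TGACGTCA) in Dusp1, searched on both strands.
Nfkbia: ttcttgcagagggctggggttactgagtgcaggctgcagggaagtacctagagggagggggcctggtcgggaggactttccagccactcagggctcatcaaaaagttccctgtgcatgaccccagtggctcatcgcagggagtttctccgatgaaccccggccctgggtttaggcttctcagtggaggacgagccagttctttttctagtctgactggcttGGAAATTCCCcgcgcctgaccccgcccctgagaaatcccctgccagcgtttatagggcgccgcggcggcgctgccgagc
Cxcl1: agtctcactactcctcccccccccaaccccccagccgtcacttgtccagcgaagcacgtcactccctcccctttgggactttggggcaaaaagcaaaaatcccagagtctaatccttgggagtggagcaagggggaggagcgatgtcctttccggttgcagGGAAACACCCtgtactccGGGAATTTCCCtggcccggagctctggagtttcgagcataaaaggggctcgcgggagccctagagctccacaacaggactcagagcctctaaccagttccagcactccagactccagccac
Fos: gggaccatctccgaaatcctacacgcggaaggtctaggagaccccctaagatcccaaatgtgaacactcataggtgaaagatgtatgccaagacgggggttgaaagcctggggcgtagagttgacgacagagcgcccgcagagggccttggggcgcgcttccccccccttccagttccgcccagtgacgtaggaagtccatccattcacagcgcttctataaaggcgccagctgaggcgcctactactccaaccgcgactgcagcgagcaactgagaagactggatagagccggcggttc
Dusp1: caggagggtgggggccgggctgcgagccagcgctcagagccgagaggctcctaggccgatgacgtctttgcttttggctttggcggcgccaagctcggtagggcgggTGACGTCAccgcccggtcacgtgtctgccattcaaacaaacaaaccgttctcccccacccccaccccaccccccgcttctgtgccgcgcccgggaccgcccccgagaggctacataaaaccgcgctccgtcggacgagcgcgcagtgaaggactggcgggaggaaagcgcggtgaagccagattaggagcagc
The Nfkbia window holds 1 NF-kB like match and the Cxcl1 window 3, 2 of which overlap. The Fos window holds no match to any of the 4 motifs searched, which also included AP-1 (TGANTCA) and the CArG box. Sites further upstream and variants of these letters were not searched, so the Fos gene may have such sites all the same. The Dusp1 window holds 1 CRE and 1 NF-kB like match that is not capitalised. A match is a description of the letters, not a bound site. The 4 windows do not stand for the other core genes. Among those with a smaller knock-in difference, the Tnfaip3, Nfkbie and Csf1 windows held an NF-kB like match, and those of Icam1, Birc3 and Sod2 held none. The window of Egr2, whose difference was kept, also held a match.

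Across promoters, the NF-kB like motif was in 20.3% of the windows of genes past 2-fold higher at 0.5 h in knock-in cells (69 with a window) and in 30.0% of those past it in crel-/- cells alone (40 with a window). The shares were 20.7% of 111 and 27.3% of 128 at 1 h and 18.4% of 305 and 24.4% of 238 at 3 h. Among all 10331 tested genes with a window the share was 12.5%. The CRE was in 11.6%, 5.41% and 5.25% of the windows of the knock-in genes at 0.5, 1 and 3 h, in 0%, 5.47% and 2.1% of those of crel-/- cells alone and in 3.25% of all tested. AP-1 was in 4.35%, 9.01% and 10.8% of the knock-in windows, in 15.0%, 8.59% and 7.98% of those of crel-/- cells alone and in 4.85% of all tested. The CArG box was in 2.9%, 1.8% and 0.984% of the knock-in windows, in 2.5%, 1.56% and 1.68% of those of crel-/- cells alone and in 1.28% of all tested. The windows with a CRE at 0.5 h belonged to 8 genes, Btg2, Ccnl1, Ch25h, Dusp1, Dusp8, Epha2, Plk2 and Ppp1r15a. No test was made of these shares, and they rest on few genes at 0.5 h.

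Chemokines were the list with the largest knock-in differences at 3 h, and most of them were lower than in crel-/- cells at each time. Of 18 measured members, 7, 5 and 14 were past 2-fold higher at 0.5, 1 and 3 h in knock-in cells and 9, 11 and 15 in crel-/- cells, with medians of 0.51, 0.93 and 3.05 against 2.14, 2.80 and 4.34. Ccl2, which attracts monocytes, stood at 5.05, 23.9, 50.7 and 387 CPM in knock-in cells and at 4.08, 206, 621 and 1171 CPM in crel-/- cells. Its log2 differences were 2.20, 3.28 and 6.21 in knock-in cells and 5.59, 7.19 and 8.10 in crel-/- cells. The gap between genotypes was thus smaller at 3 h than at 0.5 and 1 h, and all TNF libraries lay above both 0 h libraries. Its neighbour Ccl7 went from 4.62 to 24.8, 49.2 and 217 CPM in knock-in cells and from 4.97 to 150.4, 218 and 289 CPM in crel-/- cells, so that at 3 h the differences were 5.50 and 5.81.

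Cxcl1 and Cxcl2, which attract neutrophils, were higher at 0.5 and 3 h than at 1 h in knock-in cells and also in crel-/- cells. Cxcl1 stood at 1.37, 9.0, 2.96 and 19.9 CPM in knock-in cells and at 1.06, 110.4, 38.4 and 44.4 CPM in crel-/- cells. Cxcl2 was counted 3, 89, 12 and 238 times in knock-in libraries, ratios to 0 h of 29.4 (95% counting interval 9.75 to 145), 3.95 (1.07 to 21.8) and 88.1 (29.8 to 430). Such intervals cover counting error only. In crel-/- libraries Cxcl2 had 2, 990, 210 and 353 counts. For both genes the highest library was thus the one at 3 h in knock-in cells and the one at 0.5 h in crel-/- cells. Cxcl3 and Cxcl5, of the same family, did not show the lower level at 1 h. Cxcl3 stood at 0.171, 0.170, 0.338 and 4.47 CPM in knock-in cells, and Cxcl5 stood at 13.2, 42.1, 55.7 and 118 CPM in knock-in cells and at 26.6, 118, 189 and 340.5 CPM in crel-/- cells.

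Cxcl10, which attracts T cells and is also an interferon-stimulated gene, did not move in the first hour in knock-in cells. It stood at 9.93, 7.81, 10.5 and 182.5 CPM, against 3.42, 72.0, 150 and 529 CPM in crel-/- cells. Ccl5, another T cell chemokine, stood at 0.599, 0.34, 0.76 and 1.52 CPM in knock-in cells and 0.408, 1.27, 3.90 and 104 CPM in crel-/- cells. Ccl3 and Ccl4, which macrophages make, went the other way. Ccl3 stood at 12.5, 93.0, 23.4 and 39.6 CPM in knock-in and at 11.3, 68.6, 7.99 and 16.8 CPM in crel-/- cells, and Ccl4 had log2 differences of 3.76, 1.96 and 2.66 in knock-in and 3.39, 0.60 and 2.07 in crel-/- cells. For these genes the macrophage markers given above stand beside the result. Over the 15 markers the median level difference (log2, knock-in minus crel-/-) was -0.07, 0.01, -0.00 and 0.09 at 0, 0.5, 1 and 3 h, and their part in the result was not tested. Ccl9 (73.4 and 373 CPM at 0 and 3 h) and Cxcl16 (50.0 and 189 CPM) had knock-in values close to those of crel-/- cells (79.3 and 449 CPM, 54.0 and 180 CPM). Cxcl12, a chemokine that fibroblasts make at rest, stood at 542, 541, 547 and 354 CPM.

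Of 18 measured cytokines and growth factors, 4, 6 and 8 were past 2-fold higher in knock-in cells and 5, 8 and 9 in crel-/- cells. Tnf went from 1.54 to 10.5, 8.11 and 13.7 CPM in knock-in cells and from 2.12 to 77.6, 20.5 and 30.0 CPM in crel-/- cells. Csf1, the macrophage growth factor, stood at 139, 156, 191 and 259.9 CPM in knock-in cells, under 2-fold at each time, against 151.5, 296, 1165 and 1129 CPM in crel-/- cells. Lif, of the interleukin 6 family, stood at 4.62, 9.93, 14.5 and 30.5 CPM in knock-in and at 2.85, 29.2, 64.0 and 35.5 CPM in crel-/- cells. Csf1 and Lif were thus lower than in crel-/- cells at each TNF time, Lif by the least at 3 h. Il6 was counted 0 times at 0 h in knock-in cells and 27, 8 and 28 times under TNF, at least 8.93-, 2.63- and 10.4-fold higher against 3 counts in the 0 h library, and 4, 50, 18 and 25 times in crel-/- cells, so its depth is too low to order the genotypes. Hbegf, an EGF receptor ligand, was higher in knock-in cells. It stood at 11.2, 46.0, 89.2 and 109.5 CPM in knock-in cells and at 12.6, 24.0, 50.1 and 15.8 CPM in crel-/- cells.

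Adhesion molecules were higher late and by less than in crel-/- cells. Icam1, which binds leukocyte integrins, stood at 28.8, 36.4, 42.6 and 117 CPM in knock-in cells and at 34.5, 148, 454 and 930.5 CPM in crel-/- cells. Vcam1, of the same role, had log2 differences of 0.21, 0.61 and 1.24 in knock-in and 1.47, 2.71 and 3.56 in crel-/- cells. Both were past 2-fold from 0.5 h on in crel-/- cells and not before 3 h in knock-in cells. Cd44, the hyaluronan receptor, differed from them: 141, 142, 272 and 539 CPM in knock-in and 121, 119, 264 and 584 CPM in crel-/- cells. On the whole list of antigen presentation and adhesion, 0, 0 and 4 of 19 measured members were past 2-fold higher in knock-in cells and 3, 4 and 14 in crel-/- cells, and at 3 h the knock-in difference was the smaller in 19 of 19. The genes of antigen processing Psmb10, Tap1 and Tap2 were at -0.07, -0.18 and -0.24 at 3 h in knock-in cells and at 2.16, 1.39 and 2.08 in crel-/- cells.

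Innate effectors were split. Of 16 measured members of that list, 2, 2 and 5 were past 2-fold higher in knock-in cells and 3, 11 and 12 in crel-/- cells, with 3 h medians of 0.59 and 3.44. Ptgs2, the inducible cyclooxygenase, kept its response, at 10.4, 88.0, 54.1 and 143.5 CPM in knock-in and 11.1, 111, 60.9 and 75.5 CPM in crel-/- cells. Sod2, the mitochondrial superoxide dismutase, stood at 36.6, 35.5, 37.9 and 53.1 CPM in knock-in cells and reached 216 CPM in crel-/- cells. Tlr2, a receptor for bacterial lipoproteins, stood at 34.2, 42.8, 43.9 and 45.5 CPM against 45.1, 183, 348 and 546 CPM. Ptgs2 was thus high from 0.5 h on in both genotypes, and Sod2 and Tlr2 stayed under 2-fold at each time in knock-in cells.

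Interferon-stimulated genes were past 2-fold in knock-in cells at 3 h and not before. Of 40 members, all measured, none was past 2-fold higher at 0.5 or 1 h in knock-in cells and 13 were at 3 h, beside 3, 3 and 23 in crel-/- cells, and 12 of the 13 were shared. The median 3 h log2 difference was 0.70 in knock-in and 1.2 in crel-/- cells. Rsad2, an antiviral enzyme, stood at 18.9, 20.8, 24.8 and 121 CPM in knock-in and at 11.2, 18.2, 13 and 90.1 CPM in crel-/- cells. Over the list the knock-in difference was the smaller in 36 of 40 members at 3 h. Ifit1 and Mx2 had 3 h differences of 2.0 and 2.24 in knock-in and 2.27 and 1.94 in crel-/- cells, so they differed little between genotypes. Mx1 and Ifit3, of the same families, had 3 h differences of 1.77 and 1.46 in knock-in and 2.62 and 2.18 in crel-/- cells. Other members differed more. Gbp2, a guanylate-binding protein, stood at 26.7 and 55.8 CPM at 0 and 3 h in knock-in cells and at 25.1 and 533 CPM in crel-/- cells. Irf1, a transcription factor, stood at 29.5, 47.2, 51.9 and 52.9 CPM in knock-in cells and at 27.7, 603, 549 and 263 CPM in crel-/- cells.

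**Figure D4:**
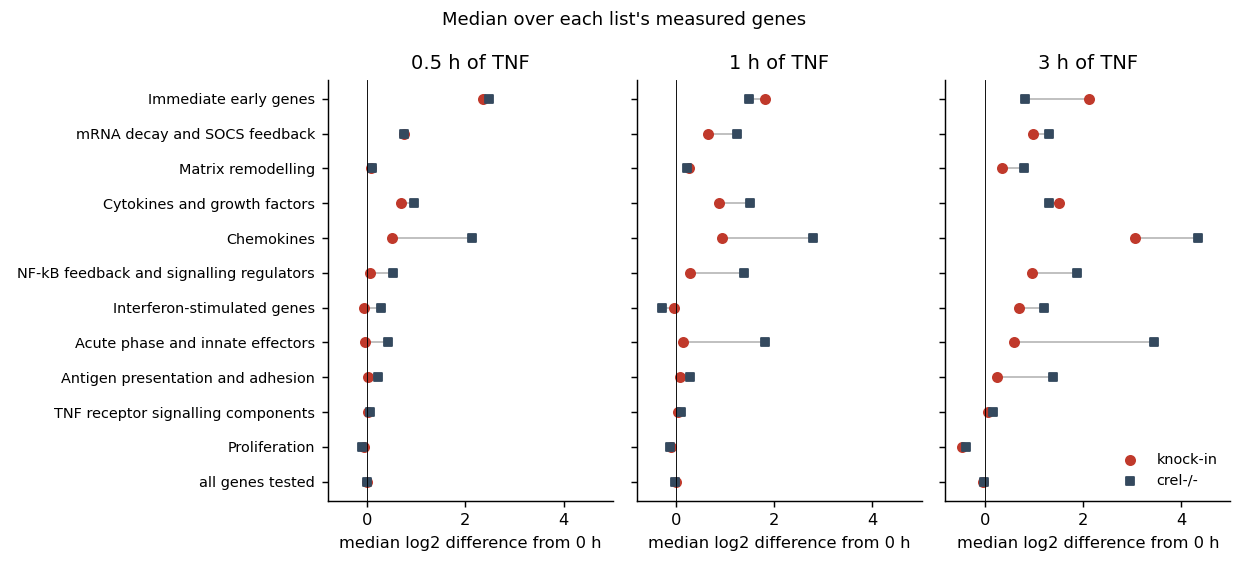
Median log2 difference from 0 h (horizontal axis) over the measured members of 11 gene lists and over all 13476 genes tested, in knock-in and crel-/- cells, at 0.5, 1 and 3 h of TNF, 1 library against 1. The immediate early list has the largest knock-in medians at 0.5 and 1 h (2.36 and 1.81) and its knock-in median exceeds its crel-/- median at 1 and 3 h (1.48 and 0.82).

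Immediate early genes had early TNF differences of similar size in both genotypes. Of 41 measured members, 31 were past 2-fold higher at 0.5 h and 27 at 1 h in knock-in cells, beside 38 and 28 in crel-/- cells, and 31 and 26 of them in both. The medians were 2.36 and 1.81 in knock-in cells and 2.48 and 1.48 in crel-/- cells, and the knock-in difference was the smaller in 21 and 17 of 41. Fos, a subunit of AP-1, stood at 20.03, 304, 18.2 and 149.9 CPM in knock-in cells and at 17.1, 186, 14.1 and 88.1 CPM in crel-/- cells. Jun, its partner, stood at 121, 843.5, 369 and 529.7 CPM in knock-in and at 106, 686, 286 and 243 CPM in crel-/- cells. Both had their highest library at 0.5 h in both genotypes, with Fos back at its 0 h level at 1 h. Fosb stood at 2.48, 120, 52.6 and 10.7 CPM in knock-in and at 3.18, 102, 52.3 and 1.54 CPM in crel-/- cells. Dusp1, the phosphatase that ends MAP kinase signalling, stood at 9.24, 163, 63.1 and 119.8 CPM in knock-in and at 8.97, 106, 20.1 and 41.2 CPM in crel-/- cells. Of the 21 members with a smaller knock-in difference at 0.5 h, only some are named here. Ier3 had log2 differences of 2.82 and 4.39 in knock-in and crel-/- cells, Junb 3.39 and 4.52, Zfp36 3.32 and 4.34, and Gadd45b 0.84 and 2.92. These 4 were picked as known NF-kB targets. Other members also had wide gaps, Maff at 2.36 and 4.22 and Klf10 at 0.07 and 1.40. What sets these members apart was not tested.

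After 3 h the immediate early list went beyond crel-/- cells. In knock-in cells 32 of 41 members were past 2-fold higher, and in crel-/- cells 16, all of them among the 32. The medians were 2.13 and 0.82, and the knock-in difference was the smaller in 5 of 41. Egr1, a zinc finger transcription factor, stood at 122, 1170, 98.8 and 653 CPM in knock-in cells and at 116, 1047, 74.3 and 151 CPM in crel-/- cells. It was thus at or below its 0 h level at 1 h in both genotypes and high again at 3 h in knock-in cells alone. Nr4a1, an orphan nuclear receptor, stood at 21.1, 628.5, 286 and 124 CPM in knock-in and at 16.0, 557.5, 213 and 12.8 CPM in crel-/- cells. Egr2 stood at 8.30, 147, 21.5 and 59.0 CPM against 9.37, 120, 22.5 and 11.4 CPM, and Atf3, a stress-induced repressor, at 25.9, 300, 167 and 92.6 CPM against 25.4, 171, 109.8 and 25.3 CPM. For Nr4a1, Egr2 and Atf3 the 3 h log2 differences were 2.54, 2.80 and 1.83 in knock-in cells and -0.31, 0.28 and -0.00 in crel-/- cells. Arc, a synaptic immediate early gene, stood at 9.76, 70.8, 36.5 and 98.6 CPM against 10.7, 57.0, 30.2 and 13.1 CPM. The 3 h values rest on 1 library in each genotype and have no replicate check.

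The same members at 3 h of the other agents showed how far this high 3 h level reached within the genotype. All 3 agents share the 0 h library of their genotype. In knock-in cells 180 genes (1.34%) were past 2-fold higher after 3 h of IL-1b and 1311 (9.73%) after LPS, beside 697 (5.17%) and 1474 (10.9%) in crel-/- cells. On the immediate early list, 32 of 41 were past 2-fold higher under TNF, 3 under IL-1b and 29 under LPS in knock-in cells, with medians of 2.13, -0.03 and 1.89. In crel-/- cells the counts were 16, 15 and 23 and the medians 0.82, 0.77 and 1.43. Egr1 stood at 653, 78.1 and 503 CPM after 3 h of TNF, IL-1b and LPS in knock-in cells and at 151, 86.5 and 334 CPM in crel-/- cells. Nr4a1 stood at 124, 6.96 and 25.8 CPM and at 12.8, 6.70 and 11.1 CPM. The high 3 h level of Egr1 in knock-in cells was thus found under TNF and LPS, not IL-1b, and that of Nr4a1 under TNF. The NF-kB regulator list ordered the agents otherwise, with 12, 7 and 22 of 27 past 2-fold higher under TNF, IL-1b and LPS in knock-in cells and 17, 16 and 26 in crel-/- cells.

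**Figure D5:**
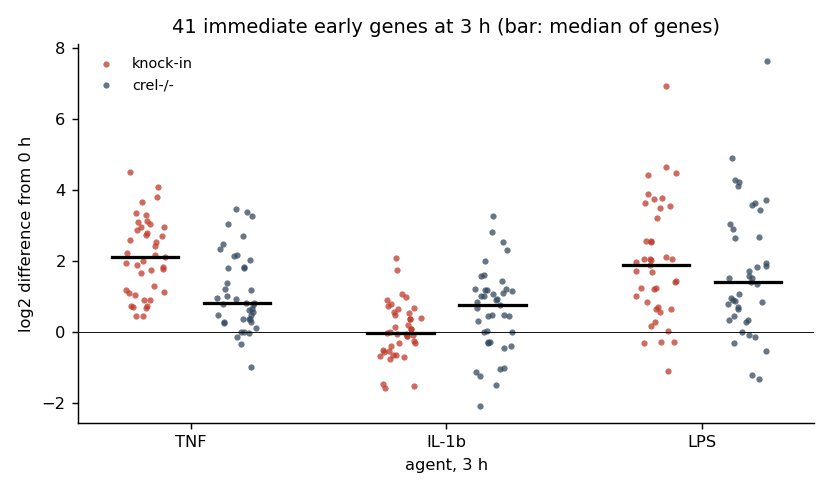
Log2 difference between 3 h and 0 h (vertical axis) of the 41 immediate early genes under TNF, IL-1b and LPS in knock-in and crel-/- cells; each point is a gene from 1 library against 1, and the bar is the median. The knock-in medians are 2.13, -0.03 and 1.89 and the crel-/- medians 0.82, 0.77 and 1.43.

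Of 13 measured genes of mRNA decay and cytokine feedback, 4 rose in the first hour in knock-in cells, and 5, 6 and 6 were past 2-fold higher at the 3 times, beside 6, 9 and 9 in crel-/- cells. Dusp1, Zfp36 and Zfp36l1 are on this list and on the immediate early list. Zfp36, which destabilises cytokine mRNAs, stood at 35.8, 360.0, 74.2 and 169.6 CPM in knock-in and at 30.8, 626, 128 and 111 CPM in crel-/- cells. On the matrix remodelling list 3, 5 and 6 of 23 measured members were past 2-fold higher in knock-in cells and 2, 7 and 8 in crel-/- cells. Plaur, the urokinase receptor, and Has2, a hyaluronan synthase, reached 61.4 and 39.5 CPM at 3 h in knock-in cells from 7.70 and 6.59 CPM, and 40.0 and 32.0 CPM in crel-/- cells. Plaur and Has2 were named for their large 3 h differences in knock-in cells, and other members fell short. Mmp3 and Mmp9 had 3 h log2 differences of -0.05 and 1.45 in knock-in and 2.26 and 2.87 in crel-/- cells. Over the matrix remodelling list the knock-in difference was the smaller in 10 of 23 members at 3 h. None of the 21 measured fibroblast matrix and contractile genes and none of the 12 steady reference genes was past 2-fold at any time. Of all genes tested, 3.02% were past 2-fold higher and 2.38% lower at 3 h in knock-in cells. Lists this short would hold few or none at those shares. Gapdh, 1 of the reference genes, stood under 5 CPM in each library and so could not be counted. The 24 proliferation genes had medians of -0.07, -0.09 and -0.47, with Tk1, thymidine kinase, past 2-fold lower at 3 h at -1.01. Of 18 p53 targets 1, 2 and 1 were past 2-fold higher in knock-in cells, beside 1, 2 and 4 in crel-/- cells. The knock-in share at 3 h, 5.56%, was 1 gene, beside 3.02% of all genes tested. Sesn1 was at -1.93 at 3 h in knock-in and at -1.41 in crel-/- cells.

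The test of the difference in TNF response between genotypes called 1 gene over the 3 times (0.00742% of those tested). Acod1, which makes itaconate in activated macrophages, was counted 17, 1, 2 and 25 times in knock-in and 1, 23, 122 and 1133 times in crel-/- libraries. The difference was -9.37 (log2, knock-in minus crel-/-, SE 0.67, edgeR adjusted p = 0.0441). It rests on 17 counts against 1 at 0 h as well as on the TNF libraries. The part of macrophage RNA in this result, whose marker levels are given above, was not tested. The call was lost with limma-voom, with all 20 libraries in the fit and without either 1 h library. At an unadjusted p of 0.05, edgeR had 126 genes with a higher and 230 with a lower response in knock-in cells.

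Over the first hour, without the knock-in 3 h library, the same test called 40 genes with a lower response (0.297%) and 6 with a higher response (0.0445%) in knock-in cells. The genes given here were chosen after their values were seen. Irf1 had the smallest adjusted p, with a difference of -3.63 (SE 0.13, edgeR adjusted p = 3.88e-07). Rnd1, a small GTPase, stood at 1.88, 3.31 and 6.67 CPM at 0, 0.5 and 1 h in knock-in and at 1.79, 73.9 and 154 CPM in crel-/- cells, a difference of -4.58 (SE 0.40, edgeR adjusted p = 2.81e-05). Cxcl10 differed by -5.10 (SE 0.39, edgeR adjusted p = 0.0408) and Cxcl1 by -4.01 (SE 0.49, edgeR adjusted p = 0.000423). Nlrp3, the inflammasome sensor, rose in knock-in cells in the first hour and yet differed by -2.66 (SE 0.28, edgeR adjusted p = 0.000116). Lif, Nfkbiz, Junb and Zfp36 were also called, with differences of -2.58, -1.89, -1.03 and -1.01. Nfkbia and Tnfaip3, which were highest at 0.5 h in crel-/- cells and whose 0.5 and 1 h values lay apart, were not called, at -2.89 (SE 1.14) and -4.22. On the matrix side, Eln, for elastin, stood at 1024, 1024 and 1035 CPM at 0, 0.5 and 1 h in knock-in and at 719, 1064 and 1079 CPM in crel-/- cells, a difference of -0.57 (SE 0.06, edgeR adjusted p = 0.000154), so here the genotypes were apart at 0 h and alike under TNF.

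The 6 genes with a higher first-hour response in knock-in cells were Rgs2, Hbegf, Id2, Atf3, Plin2 and Rhob. Hbegf differed by 1.04 (SE 0.19, edgeR adjusted p = 0.0192) and Atf3 by 0.68 (SE 0.13, edgeR adjusted p = 0.0403). Plin2, a lipid droplet protein, stood at 237, 331, 396 and 545 CPM in knock-in and at 228, 224, 229 and 177 CPM in crel-/- cells, a difference of 0.62 (SE 0.10, edgeR adjusted p = 0.0155). Rgs2, a regulator of G protein signalling, stood at 62.0, 95.8, 40.0 and 12.7 CPM in knock-in and at 58.9, 43.2, 14.7 and 10.8 CPM in crel-/- cells, so it was below 0 h in both genotypes by 3 h.

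Few genes were past 2-fold higher in knock-in cells while under 0.5 (log2) in crel-/- cells: 1 at 0.5 h, 11 at 1 h and 53 at 3 h. The one at 0.5 h was Neat1, a nuclear long non-coding RNA, at 87.0, 174.5, 182.5 and 118 CPM in knock-in and 58.5, 72.6, 227 and 43.1 CPM in crel-/- cells. At 1 h the widest gap was that of Rgs1, at 2.57, 32.0, 9.38 and 8.56 CPM in knock-in and 2.53, 11.1, 1.49 and 3.08 CPM in crel-/- cells. At 3 h the widest gaps were those of Ibsp, Alpl, Arc, Fosb and Hbegf. Ibsp, bone sialoprotein, was counted 133, 21, 1 and 925 times in knock-in libraries, 11.4, 1.78, 0.0845 and 88.0 CPM, and Alpl, the alkaline phosphatase of mineralising cells, stood at 1.03, 1.02, 0.338 and 10.8 CPM. Ibsp was lower at 0.5 and 1 h than at 0 h in both genotypes, and in crel-/- cells Ibsp stood at 5.79, 0.374, 0.557 and 1.03 CPM. In the knock-in libraries of IL-1b and LPS, Ibsp was at 0 to 0.097 CPM, so its high level rests on 1 library. Ibsp was one of 7 measured cartilage and skeletal markers, whose summed level lay between 1098 and 1191 CPM in the 4 knock-in libraries. Most of that sum was Col11a1, at 1029 to 1061 CPM, so it does not describe the other markers. Col2a1 stood at 15.3, 24.1, 7.60 and 28.4 CPM.

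Genes lower after TNF in knock-in cells were fewer than genes higher at each time, except at 3 h with scaling by library totals alone or with genes counted from 1 CPM on (553 higher and 668 lower). Over the 3 times 349 genes were past 2-fold lower at least once, and Dnajc28, Txnip and Zfp759 at all 3. At 3 h the genes furthest below 0 h were Lpar5 (5.48, 6.45, 4.05 and 0.475 CPM), Tifab, Il16, Slc46a3, Rasgrp3 and Gpr160, with log2 differences between -3.10 and -2.78. Rasgrp3, an activator of Ras proteins, stood at 57.4, 66.3, 52.0 and 8.18 CPM. In crel-/- cells the same 6 genes had differences of -3.12, -1.61, -3.16, -1.78, -3.25 and -2.68. Of the 321 genes past 2-fold lower at 3 h in knock-in cells, 170 were so in crel-/- cells too (53% of the knock-in and 44.2% of the crel-/- set).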

How the data were processed

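The values the authors deposited are raw gene counts, whole numbers in a single table of 20 libraries. A stranded mRNA kit, 1 ug of RNA, 12 PCR cycles and 50 nt single-end reads are named in the labels' protocols. Per the submitters' processing notes, cutadapt 1.12, STAR, featureCounts 1.5.1 and DESeq2 were used with the build mm10. Not given in the sources used here were the annotation release, the strand setting, the treatment of reads with several matches and the other versions, so counts of overlapping, antisense or near-identical genes are uncertain. A symbol was found for 45143 of 45706 gene identifiers.

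From these counts, TMM factors over 20 libraries, CPM and log2 CPM (prior count 2) were computed with edgeR 4.0.16 in R 4.3.3. Genes with at least 1 CPM in 1 of 4 knock-in libraries (13476, 99.9% of knock-in counts) were tested with the quasi-likelihood F test and Benjamini-Hochberg adjustment at 0.05. Knock-in TMM factors were 0.996 to 1.08. A count of 3 corresponds to 0.253 to 0.285 CPM in the knock-in libraries. SE is the fitted log2 difference divided by the square root of F. Baselines of 0 counts were replaced by 3 counts, and those of 1 to 3 counts have an exact 95% counting interval. The genotype model held genotype, condition and their interaction with TNF exposure over 8 libraries, with 2 residual degrees of freedom. DESeq2 1.42.0 and limma 3.58.1 were alternatives, with other scalings, filters, baselines and left-out libraries. The tests over 3 times were checked on simulated data in which a changed gene moved alike at each TNF time, unlike many genes here. The first-hour tests were not simulated.

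Lists and members were chosen with earlier results of these data known. Named genes were 40 core genes whatever their values (Csf2, Saa3 and Lcn2 were under 1 CPM and not tested), the 6 furthest above and below 0 h at each time, those called by the tests over 3 times, up to 3 highest and 2 lowest of each list at 3 h, and up to 5 genes per time past 2-fold in knock-in cells and under 0.5 in crel-/- cells. Genes named to fill a list's description and genes of the first-hour tests were chosen after their values were seen. Promoters came from RefSeq (GRCm38.p6).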

Additional observations from a re-analysis of the deposited data

Results flagged for a closer look

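Each gene here had a TNF response that differed between knock-in and crel-/- cells by edgeR's interaction test (knock-in minus crel-/-, log2). Over the 3 times Acod1 differed by -9.37, with an adjusted p of 0.0441. Over 0.5 and 1 h, without the knock-in 3 h library, Acod1 differed by -9.56, Cxcl10 by -5.10, Cxcl1 by -4.01, Lif by -2.58, Nfkbiz by -1.89, Junb by -1.03 and Zfp36 by -1.01. In the same test Hbegf differed by 1.04 and Atf3 by 0.68, the other way. The test of the first hour has 1 residual degree of freedom and 1 library at 0 h in each genotype, and none of these genes other than Acod1 was called over the 3 times.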

How the results depend on the processing

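For the mean TNF response in knock-in cells, where edgeR called 0 genes, DESeq2 called 66 higher and 1 lower, no filter on low counts gave 34 and 8, and both genotypes' 0 h libraries as the baseline gave 37 and 1. Leaving out each TNF library in turn gave 2 to 73 higher and 0 to 4 lower, the most without the 3 h library. For the genotype difference, with 0 higher and 1 lower, DESeq2 called 4 lower, limma-voom 0, no filter 1 higher and 6 lower, and a fit over all 20 libraries 0. Leaving out each TNF library gave 0 to 6 higher and 0 to 40 lower: 0 lower without either 1 h library, 5 without either 0.5 h library and 40 without either 3 h library. Counting genes from 1 CPM on gave, at 0.5 h, 181 higher and 92 lower, at 1 h 252 and 190, and at 3 h 553 and 668. From 10 CPM on, 4, 22 and 193 were lower at the 3 times. A log2 difference of at least 1.5 left 1 lower at 0.5 h, then 79 higher with 9 lower at 1 h and 198 with 84 at 3 h. No named gene past 2-fold changed its direction under the alternatives run on single genes. Among named genes and list medians, 7 values changed sign with library totals alone and 7 with both 0 h libraries as the baseline, Cxcl10 at 0.5 h by the most (-0.34 and 0.40). Of 198 values of named genes, 24 left their exact 95% counting interval with both 0 h libraries as the baseline, 5 with library totals alone and 0 with a prior count of 0.5. That interval covers counting error only. Of 42 list medians, 7 moved beyond the spread of their members with both 0 h libraries as the baseline and 2 with library totals alone. No paired analysis was possible because each genotype, agent and time is 1 library and the labels give no replicate numbers. With 1 library at each time, no difference at a single time could be tested, and genes under about 5 CPM were too shallow to order.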
